A study of Homo sapiens with 20 samples.

Results

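Day 3 of erythroid differentiation was compared with day 1 in HUDEP-2 cells, with 2 RNA-seq libraries on each day, which makes 4 of the 20 libraries of the series. The libraries were chosen by the day in their labels alone, with no measured value used. HUDEP-2 is an immortalized line of human erythroid progenitors derived from umbilical cord blood, held in a proliferating state by doxycycline, and the cells here were wild type. On both days the cells were in the same differentiation medium, IMDM with human holo-transferrin, AB human serum, heparin, insulin, L-glutamine, erythropoietin (EPO), stem cell factor (SCF) and doxycycline. The days therefore differ in time since the cells left expansion medium, and neither the later removal of SCF nor that of doxycycline lay between them. Dexamethasone, a synthetic glucocorticoid, is listed by the study's methods for the expansion medium and not for the differentiation medium, while the growth protocol in the labels does not list it. All libraries come from 1 immortalized line, the labels number the libraries of a day as replicates, and the study calls such libraries biological replicates without saying whether they were separate cultures, so p-values measure the spread between these libraries, which may be in part technical.

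Erythroid progenitors are kept dividing by SCF acting on its receptor KIT, by EPO and by glucocorticoids. As they commit to terminal maturation they raise globins, the enzymes of heme synthesis and the proteins of the red cell membrane, and give up genes of the stem and progenitor state such as the transcription factors GATA2 and SPI1. EPO acts through its receptor EPOR, the kinase JAK2 and the STAT5 transcription factors, and CISH is a feedback target of that route.

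Each day had 1 library in the deposited table that spans all days, called the all-days set here, and 1 in the table of days 0 to 6, called the early-days set. Both values of a day are given below in that order, as normalized CPM (counts set against the library total, which was scaled by TMM factors, edgeR's trimmed mean of M-values) unless another unit is named. The 4 libraries held between 54157215 and 68356040 counts. Ribosomal RNA made up 1.06% to 2.00% of the counts on day 1 and 1.20% to 1.85% on day 3, and globin mRNA 1.46% to 1.61% and 2.36% to 2.69%. The 2 sets stood apart on every day. In a principal component analysis of the 14 libraries of days 0 to 6 the first component, 34.5% of the variance, followed the days, and the second, 25.4%, separated the sets. What differed between the sets (culture, extraction or sequencing run) is not given in the labels.

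**Figure D1:**
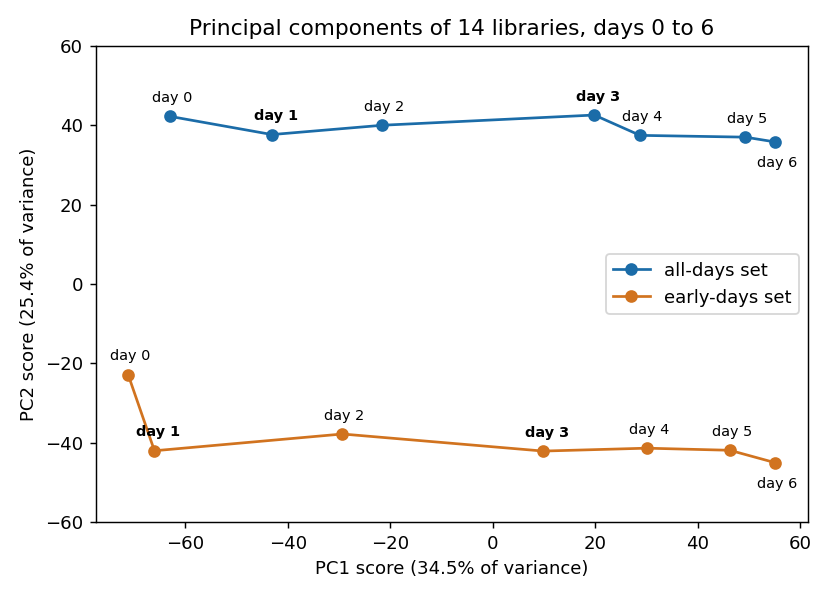
Scores of the 14 libraries of days 0 to 6 on the first (34.5% of variance) and second (25.4%) principal components of log2 normalized CPM, with a line through the days of each set. Days advance from left to right in both sets, the libraries of the all-days set lie above 0 on the second component and those of the early-days set below 0, and days 1 and 3 (bold) are separated along the first component in each.

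Of 46425 genes, 15890 had enough counts to be tested. With edgeR's quasi-likelihood test on the 14 libraries, 240 genes, 1.51% of those tested, differed between day 3 and day 1 at an adjusted p (Benjamini-Hochberg, over all genes tested) under 0.05, and such genes are named called below. There were 83 higher on day 3 (0.522%) and 157 lower (0.988%), and 2210 genes had an unadjusted p under 0.05. Among the called genes the median log2 fold change was 0.94 for those higher and -1.48 for those lower, against -0.01 over all genes tested. At least 2-fold changes were found for 40 of the higher and 113 of the lower genes, and at least 4-fold changes for 9 and 51. For all 240 both libraries of one day lay above both of the other (38.8% of the genes tested), which the test itself largely requires of a called gene.

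The count of called genes depended on how the 2 sets were treated. Libraries of a set deviated together on every pair of days, and with the set as an additive term in the fit (called the block below) 1030 genes were higher (6.48%) and 1226 lower (7.72%), 14.2% of those tested in all, with the 240 among them. The 4 libraries of days 1 and 3 fitted alone without the block gave 0 calls by the quasi-likelihood test, with 1460 genes at an unadjusted p under 0.05, while edgeR's exact test on them called 122 higher and 327 lower. Without the day 1 library of the all-days set 117 genes were higher and 191 lower, without the day 3 library of that set 10 and 15, without the day 1 library of the early-days set 9 and 24, and without its day 3 library 7 and 9. Of the 240 genes 179, 25, 33 and 15 stayed called in these 4 fits in this order. Where a gene or a list was called with the block and not without it in the quasi-likelihood fit of the 14 libraries, that is said beside its values, and it says nothing of other tools. The gene lists were chosen with earlier results of these data known, so a list's count or median is a description and no independent test. Counts of list members called below are to be set beside the shares over all genes tested. These were 0.522% higher and 0.988% lower without the block, and 6.48% and 7.72% with it.

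Among the largest increases of called genes were those of SLC4A1, TRIM10, ATP1B2 and CR1L. SLC4A1 (gene ID 6521, chr17:44248390-44268161 on hg38), the anion exchanger band 3 of the red cell membrane, measured 111 and 57.9 on day 1 and 439 and 537 on day 3. Both day 3 libraries were above both day 1 libraries, and the fitted log2 fold change was 2.53 ± 0.44 (SE, adjusted p = 0.0244), 1.98 in the all-days set and 3.21 in the early-days set. TRIM10 (gene ID 10107, chr6:30151939-30163216), the ubiquitin ligase family member the study is about, measured 6.71 and 4.13 on day 1 and 27.4 and 26.1 on day 3. The day 3 libraries were close to each other and 4.94-fold above day 1 by the fit (2.31 ± 0.34 on the log2 scale, adjusted p = 0.0119). ATP1B2, a beta subunit of the sodium-potassium pump, measured 14.9 and 6.89 on day 1 and 69.8 and 59.5 on day 3 (log2 fold change 2.57 ± 0.37, adjusted p = 0.0114). SLC4A1, TRIM10 and ATP1B2 did not stay called in every fit with 1 library left out. Their log2 fold changes in those fits ran from 2.13 to 3.09, from 1.99 to 2.70 and from 2.11 to 3.24 in this order. CR1L, related to complement receptor 1, was low on day 1 and measured 0.573 and 0.497 on day 1 and 3.98 and 3.8 on day 3, with the 2 libraries of each day nearly equal (log2 fold change 2.86 ± 0.23, adjusted p = 0.00119). SYBU, which encodes a kinesin adaptor, rose by 2.91 on the log2 scale, to 3.35 and 5.4, and SQOR, the mitochondrial enzyme that oxidizes sulfide, by 2.18, to 10.2 and 10.8.

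The other rises of this kind, as log2 fold changes, were those of RIPOR3 (1.77), the lipid transfer protein STARD5 (1.62), NLRC5 (1.57), a transactivator of MHC class I genes, the glycolytic enzyme PFKM (1.43), the pyrophosphate transporter ANKH (1.40) and the serine carboxypeptidase SCPEP1 (1.34). FGFR3, a growth factor receptor, rose from 2.93 and 2.5 to 7.9 and 8.52 CPM. The entry at the top of the list, RTEL1-TNFRSF6B, is a read-through transcript and is uncertain. It had 0 and 0 counts on day 1 and 492 and 445 counts on day 3, at least 165-fold higher on day 3 when the floor is 3 counts per library and at least 144-fold by the lower day 3 library. On day 0 it stood at 6.13 and 5.86 CPM and on day 2 at 6.05 and 5.34, so day 1 was the low day. The zero days make its fitted fold change no bound. TNFRSF6B, which shares exons with it, moved the other way with 66 and 78 counts on day 1 and 5 and 4 counts on day 3 (log2 fold change -3.83 ± 0.80, adjusted p just above the threshold of 0.05, and 0.00851 with the block). It was named after its values were seen, and how reads shared by the 2 entries were divided is not given in the sources used here.

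By amount of mRNA the largest rises named here were those of HBB, PRDX2, SLC4A1, BLVRB, LEPR, AMMECR1 and ABCB10. HBB, beta-globin, measured 11501 and 9657 on day 1 and 17062 and 15911 on day 3. Its day 3 libraries were both above its day 1 libraries (log2 fold change 0.64 ± 0.12, adjusted p = 0.0277). PRDX2, the abundant peroxiredoxin of red cells, measured 613 and 489.8 on day 1 and 1139.9 and 1219 on day 3 (log2 fold change 1.10 ± 0.16, adjusted p = 0.0126), and BLVRB, biliverdin reductase B, 396 and 322 on day 1 and 634 and 632 on day 3 (log2 fold change 0.82 ± 0.13, adjusted p = 0.0155). ABCB10, a mitochondrial transporter needed for heme synthesis, measured 264 and 228 on day 1 and 458 and 460.1 on day 3 and rose by 0.90. LEPR rose by 1.00 and AMMECR1 by 0.68, and LEPR shares its first exons with LEPROT, which measured 63 and 73.9 on day 1 and 93.8 and 102 on day 3.

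Among the largest decreases were those of PTGES, TSC22D3, C3AR1 and IL2RG. PTGES, prostaglandin E synthase, fell from 7.46 and 11.3 CPM to 0.166 and 0.0789 (log2 fold change -6.25 ± 0.48, adjusted p = 0.0047), the day 3 values resting on 9 and 5 counts. C3AR1, the receptor of complement fragment C3a, measured 3.21 and 6.18 on day 1 and 0.222 and 0.347 on day 3 (log2 fold change -4.03 ± 0.38, adjusted p = 0.00293). IL2RG, the common gamma chain of cytokine receptors, measured 6.92 and 26.8 on day 1 and 1.15 and 0.995 on day 3. Its day 1 library of the early-days set was far above the other, and both were above day 3, with log2 fold changes of -2.56 and -4.71 in the 2 sets and a fit of -3.98 ± 0.68 (adjusted p = 0.0226). IL2RB, the beta chain of the interleukin 2 receptor, had 67 and 98 counts on day 1 and none on day 3. With a floor of 3 counts per library its mean fell at least 25.6-fold, and at least 23.3-fold by the lower day 1 library. IL2RB was named after its values were seen. RHEX, a regulator of EPO signalling in erythroid cells, measured 23.2 and 19.2 on day 1 and 1.66 and 1.25 on day 3 (log2 fold change -3.87 ± 0.62, adjusted p = 0.0162).

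VIM, the intermediate filament vimentin that erythroid cells lose before they shed the nucleus, measured 465 and 448 on day 1 and 54.9 and 38.7 on day 3. Both sets lost most of it, 9.76-fold by the fit (log2 fold change -3.29 ± 0.33, adjusted p = 0.00339). Other large falls were in the cell adhesion gene CDH6 (-3.95 on the log2 scale), the transcription factors RUNX2 (-3.56), IKZF2 (-3.44) and PRDM8 (-3.96), the kinase CDK15 (-3.94), the anthrax toxin receptor ANTXR2 (-3.52), the inflammasome adaptor PYCARD (-3.13) and the sialic acid binding lectin SIGLEC6 (-2.94). By amount of mRNA, FLNA, the actin cross-linker filamin A, fell from 1068 and 988 to 546 and 462 CPM and MSN, the membrane linker moesin, from 827 and 1007 to 458 and 493. LAPTM5, a lysosomal protein of blood cells, fell from 509.8 and 797 to 299 and 337 and HPGD, which degrades prostaglandins, from 225 and 411 to 54.4 and 80.3.

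Markers of other blood cells were checked in the same libraries. Erythroid markers were present throughout: all 16 were tested, none was at 0, and their summed level was 11470 to 14070 CPM of the library total on day 1 and 18260 to 21820 on day 3, with 2 called higher and 10 with the block. Mast cell and basophil markers summed to 793.5 and 2099 CPM on day 1 and to 208.5 and 551.5 on day 3. Of the 11 in the list 4 or 5 were at 0 on day 1 and 5 or 7 on day 3, and FCER1A, HDC, CMA1, CLC and MS4A3 were too low to be tested. Of the 6 tested none was called without the block (6 lower at an unadjusted p under 0.05, 4 lower by DESeq2) and all 6 were lower with it, with a median of -2.11. The tryptase genes TPSAB1 and TPSB2, which share near-identical sequence, measured 275 and 807 on day 1 and 70.1 and 212 on day 3, and 311 and 862 on day 1 and 86.6 and 242 on day 3. The early-days library was the higher on each day. In bulk RNA fewer cells of a type and less of its RNA per cell cannot be told apart, and the part of such cells in the falls of this comparison was not tested.

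Of the other marker lists the megakaryocyte one was the highest. Megakaryocyte and platelet markers summed to 19.8 and 137.2 CPM on day 1 and to 13.8 and 57.6 on day 3, with 6 or 7 of 12 at 0. The sum fell with ITGA2B, which had 689 and 8427 counts on day 1 and 280 and 2171 on day 3. The list did not fall as a whole. Of its 5 members tested 3 had a log2 fold change above 0, and the median was 0.80. That median was -0.36 without the day 3 library of the all-days set and -0.42 without that of the early-days set. Neutrophil and monocyte markers summed to at most 2.18 CPM, lymphocyte markers to at most 1.14 and stem cell markers to at most 4.58 CPM in any of the 4 libraries. Of the 13 neutrophil and monocyte markers 7 to 9 were at 0 in a library, of the 9 lymphocyte markers 7 or 8, and of the 8 stem cell markers 4 to 6. MPO, ELANE and CD3E were too low to be tested. No member of these 4 lists was called by the quasi-likelihood test, with 1 lower at an unadjusted p under 0.05, 2 lower with the block and 0 by DESeq2.

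The 250 bases before the annotated start of 4 of the genes with the largest changes are shown, so that promoters of genes that moved in each direction can be read beside their values. PTGES, TSC22D3 and C3AR1 had the largest falls, and CR1L was taken among the rises after motifs had been found in it; the windows of RTEL1-TNFRSF6B and ATP1B2 held none of those searched. The sequences are RefSeq's on GRCh38.p14, 5′ to 3′ on the strand of the gene. A gene's values sum all its transcripts, so the window shown need not lie before the start of the transcript that changed. Capitals mark motifs on either strand. One is the GC box, GGGCGG, bound by factors such as SP1. Another is the box read by NF-Y, spelled CCAAT, and the last is the TATA box, searched as TATAAA. CR1L lies on the plus strand at chr1:207644883-207645132, PTGES on the minus strand at chr9:129753043-129753292, TSC22D3 on the minus strand at chrX:107775989-107776238 and C3AR1 on the minus strand at chr12:8066360-8066609.
CR1L: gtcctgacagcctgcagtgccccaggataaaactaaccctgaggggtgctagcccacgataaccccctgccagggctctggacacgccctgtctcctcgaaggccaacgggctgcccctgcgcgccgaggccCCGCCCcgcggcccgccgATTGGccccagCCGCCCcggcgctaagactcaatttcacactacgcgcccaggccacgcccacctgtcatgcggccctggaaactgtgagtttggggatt
PTGES: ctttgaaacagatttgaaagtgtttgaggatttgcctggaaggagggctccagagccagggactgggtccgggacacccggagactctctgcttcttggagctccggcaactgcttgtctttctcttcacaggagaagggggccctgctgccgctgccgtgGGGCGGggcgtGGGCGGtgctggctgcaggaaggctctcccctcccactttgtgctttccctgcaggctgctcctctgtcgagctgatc
TSC22D3: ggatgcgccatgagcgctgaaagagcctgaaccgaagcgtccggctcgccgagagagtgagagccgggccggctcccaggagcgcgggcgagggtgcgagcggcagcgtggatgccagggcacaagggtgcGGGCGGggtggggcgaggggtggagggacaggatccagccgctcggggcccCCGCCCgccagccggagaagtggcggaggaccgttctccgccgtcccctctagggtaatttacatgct
C3AR1: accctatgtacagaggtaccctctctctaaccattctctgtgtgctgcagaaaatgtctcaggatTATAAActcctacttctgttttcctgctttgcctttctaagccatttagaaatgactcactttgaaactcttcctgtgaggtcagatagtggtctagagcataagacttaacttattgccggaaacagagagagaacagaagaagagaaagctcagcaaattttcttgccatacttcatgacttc
GC content was 67.2% for CR1L, 61.2% for PTGES, 71.2% for TSC22D3 and 40.8% for C3AR1. Motifs of erythroid and growth factors were searched on both strands as well. The motif of GATA factors was taken as AGATAA, or with a different first base as TGATAA. The box of KLF1 was taken as CCACACCC. The E-box of MYC was taken as CACGTG. None of the 4 windows held any of these, which says only that the letters are not in this window. Over the 250 bases of all genes with an entry, the GATA factor motif was in 7.46% of 67 promoters of genes called higher, 9.32% of 118 of genes called lower and 7.89% of 11074 of genes tested. The same shares were 1.49%, 4.24% and 2.70% for the KLF1 box, 4.48%, 8.47% and 9.11% for the E-box and 70.1%, 66.9% and 65.8% for the GC box. The NF-Y box was in 28.4% of the promoters of higher genes and 35.3% of those of genes tested. Its share among lower genes was nearly equal to that among higher genes. The TATA box was in 4.48%, 7.63% and 5.55% of the promoters of higher, lower and tested genes. These are descriptions, and no test was made of them.

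The glucocorticoid targets PER1, TSC22D3, FKBP5 and KLF9 fell in both sets, and they did so between day 2 and day 3. Of the 8 list members tested 4 were called lower and 5 with the block, with a median log2 fold change of -1.46 against -0.01 over all genes. Among all genes tested 0.988% were called lower, and 7.72% with the block. Relative to day 0 the median of the list was 0.07 on day 1, 0.05 on day 2 and -1.32 on day 3 on the log2 scale. Whether the change of medium had a part in these falls was not tested. PER1 (gene ID 5187, chr17:8140470-8156360), a clock gene induced by the glucocorticoid receptor, measured 178 and 163 on day 1 and 19.8 and 15.5 on day 3 (log2 fold change -3.27 ± 0.19, adjusted p = 0.000203). The sets differed little, and on day 2 it was still at 171 and 155. TSC22D3, also known as GILZ, a mediator of glucocorticoid effects, measured 59.7 and 80.1 on day 1 and 2.52 and 3.85 on day 3 (log2 fold change -4.45 ± 0.69, adjusted p = 0.0142), after 44.5 and 52.6 on day 2. FKBP5, the co-chaperone of the glucocorticoid receptor, measured 1372 and 1201 on day 1 and 552 and 446 on day 3 (log2 fold change -1.37 ± 0.19, adjusted p = 0.0104). Day 2, at 1459 and 1440.4, was the highest of the 3 days for FKBP5 in both sets. KLF9, a transcription factor of the same response, measured 29 and 32.6 on day 1 and 9.49 and 11.4 on day 3 (log2 fold change -1.56 ± 0.21, adjusted p = 0.00949).

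The share of the log2 change from day 1 to day 3 that fell between days 2 and 3 was 98% for PER1, 88% for TSC22D3, 104% for KLF9 and 113% for FKBP5, where a share above 100 means that day 2 lay beyond day 1. Over the 157 genes called lower the median share was 53.4%, and 15 genes, these 4 and CDH6 included, had at least 80% of the change in that step. ZBTB16 fell with the block and not without it (1.39 and 0.98 on day 1 and 0.259 and 0.253 on day 3, adjusted p = 0.0913 without it and 0.0068 with it). The 3 other members tested were not called in either fit. ZFP36L2 measured 482 and 461 on day 1 and 446 and 344 on day 3, DUSP1 13.3 and 26.7 on day 1 and 15.8 and 32 on day 3 and SGK1 11 and 12.5 on day 1 and 14.2 and 8.13 on day 3, and the 2 sets of SGK1 moved in opposite directions (0.37 and -0.62). When 1 library was left out the number of list members called lower stayed at 4 without the day 1 library of the all-days set and was 1 without any of the other 3. Low levels held through day 6, where PER1 stood at 17 and 16.1, TSC22D3 at 2.59 and 9.29 and FKBP5 at 434 and 311.

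**Figure D2:**
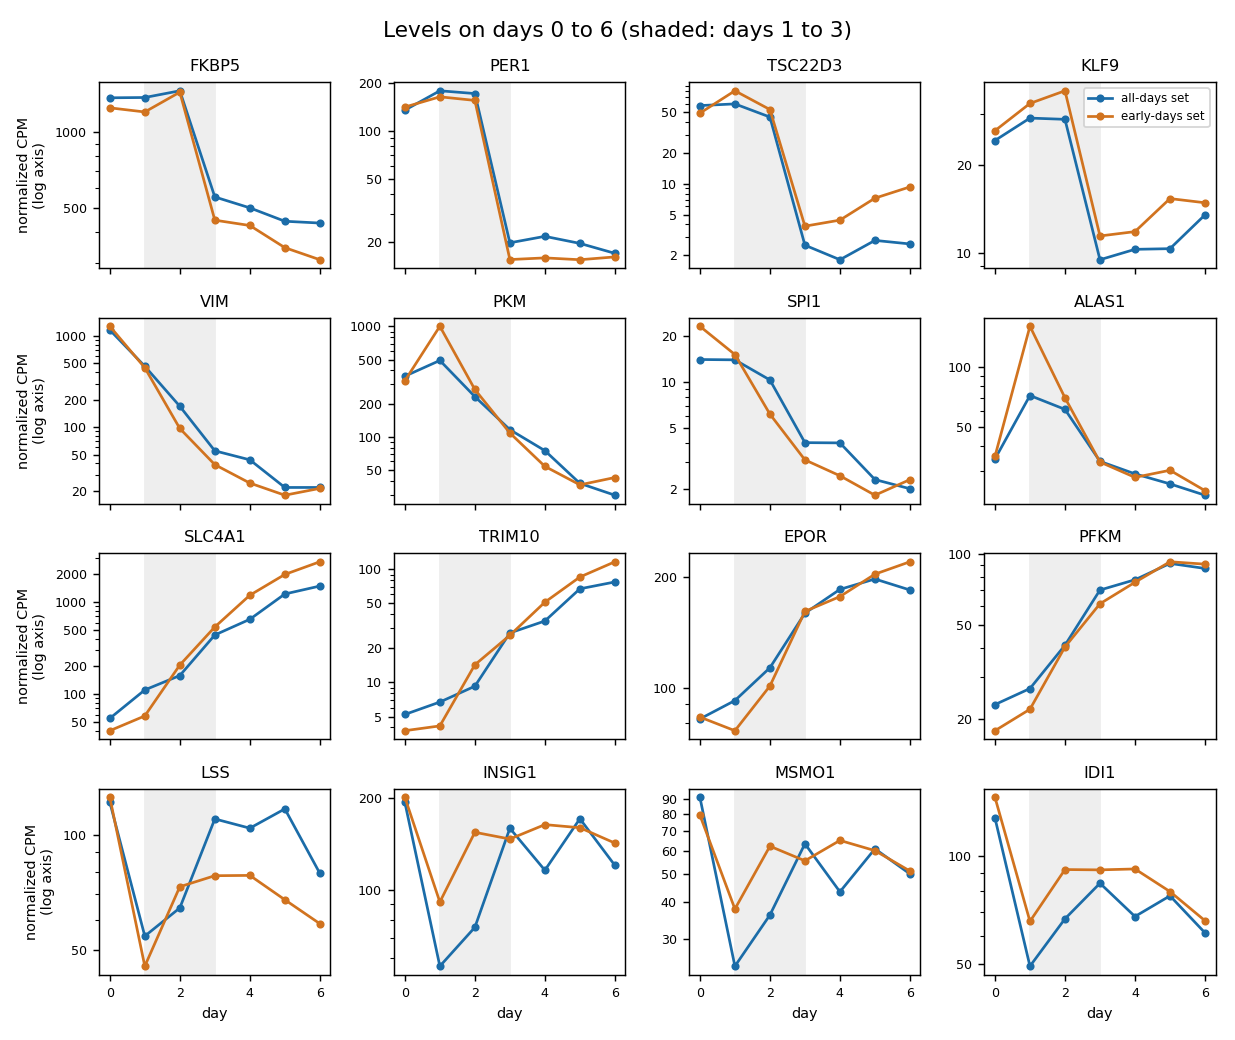
Normalized CPM (log axis) on days 0 to 6 in the all-days set (blue) and the early-days set (orange) for 4 glucocorticoid targets (top row), 4 other genes that were lower on day 3, 4 that were higher, and 4 cholesterol genes (bottom row), with days 1 to 3 shaded. FKBP5, PER1, TSC22D3 and KLF9 drop between days 2 and 3, VIM and SLC4A1 change step by step over the days, and LSS, INSIG1, MSMO1 and IDI1 have their lowest value of days 0 to 3 on day 1.

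Glycolytic enzymes changed in both directions, with the M-type pyruvate kinase gene lower and the muscle-type phosphofructokinase gene higher. Of 18 list members tested 1 was called higher and 4 lower, and 4 and 8 with the block, with a median log2 fold change of -0.30. PFKM measured 26.9 and 22 on day 1 and 70.2 and 61.4 on day 3 (log2 fold change 1.43 ± 0.14, adjusted p = 0.00339). It stayed called whichever of the 4 libraries was left out. PKM measured 492 and 1004 on day 1 and 116 and 109 on day 3 (log2 fold change -2.73 ± 0.32, adjusted p = 0.00526). Its early-days library of day 1 was well above the other while those of day 3 were alike, so the log2 fold change was -2.08 in the all-days set and -3.21 in the early-days set. GAPDH measured 2788 and 3346 on day 1 and 1822 and 1858 on day 3 (log2 fold change -0.74 ± 0.11, adjusted p = 0.0126). PGAM1 fell from 225 and 231 to 141 and 129 and PFKP, the platelet-type phosphofructokinase, from 83.3 and 97.9 to 58.6 and 57.5.

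Levels of different genes were compared per length, in TPM. Pyruvate kinase changed its leading gene. PKM stood at 456 and 871 TPM on day 1 and 106 and 91.8 TPM on day 3, and PKLR, the gene of the liver and red cell enzyme, at 273 and 129 TPM on day 1 and 358 and 215 TPM on day 3. PKM was above PKLR in both day 1 libraries and below it in both day 3 libraries. PKLR itself rose with the block and not without it (log2 fold change 0.54 ± 0.38, adjusted p = 0.623 without it and 0.0128 with it). Of the phosphofructokinase genes PFKL, at 155 and 119.9 TPM on day 1 and 164 and 109 TPM on day 3, stayed above PFKM, at 17.9 and 14 TPM on day 1 and 47.1 and 39.1 TPM on day 3. The other calls with the block were falls of ENO1 (-0.78), GPI (-0.80), LDHA (-0.81) and TPI1, and rises of BPGM (1.02), which makes the 2,3-bisphosphoglycerate of red cells, and HK1 (0.28). Without the day 1 library of the all-days set 3 members were called lower, without that of the early-days set 1, and without the day 3 library of either set 0.

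EPOR, JAK2 and CISH, genes of EPO signalling, rose, and the kinase LYN fell, while KIT fell with the block and not without it. Of 16 list members 3 were called higher and 1 lower, 4 and 5 with the block, and the median log2 fold change was -0.14. EPOR measured 92.2 and 76.3 on day 1 and 159 and 161 on day 3 (log2 fold change 0.93 ± 0.12, adjusted p = 0.00935). JAK2, the kinase bound to it, measured 35.5 and 34.9 on day 1 and 68.4 and 64.9 on day 3 (log2 fold change 0.92 ± 0.13, adjusted p = 0.0118), and the feedback inhibitor CISH 67.4 and 57.1 on day 1 and 114 and 109 on day 3 (log2 fold change 0.84 ± 0.16, adjusted p = 0.0303). For all 3 the day 3 libraries were close to each other and above both day 1 libraries. PIM1, a kinase induced by STAT5, rose with the block and not without it (446 and 617 on day 1 and 765 and 964 on day 3, adjusted p = 0.0933 without it and 0.00314 with it). LYN, a kinase of the SRC family, fell from 223 and 252 to 152 and 164 (log2 fold change -0.59 ± 0.09, adjusted p = 0.0164). KIT measured 510.0 and 608 on day 1 and 324 and 281 on day 3, a fall called with the block and not without it (log2 fold change -0.89 ± 0.23, adjusted p = 0.099 without it and 0.0135 with it). PTPN6, the phosphatase SHP-1 that damps both receptors, measured 39.7 and 47.7 on day 1 and 11.6 and 4.37 on day 3 (adjusted p = 0.246 without the block and 0.0092 with it).

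Feedback inhibitors and early response genes of the ERK route, which lies downstream of KIT, included 1 that fell. Of 18 tested, 1 was called lower and 7 with the block, with a median of -0.48. The one called was SPRY4, an inhibitor of receptor tyrosine kinase signalling, at 4.7 and 6.53 on day 1 and 2.09 and 1.29 on day 3 (log2 fold change -1.73 ± 0.35, adjusted p = 0.0438). SPRY2 measured 6.16 and 6.56 on day 1 and 3.7 and 3.76 on day 3 (adjusted p = 0.00989 with the block and 0.0763 without). IER3 measured 11.2 and 41.7 on day 1 and 6.05 and 11.3 on day 3, with the early-days library of day 1 far above the other 3 (adjusted p = 0.0221 with the block and 0.286 without). The ERK list had 0 calls by the quasi-likelihood test whichever of the 4 libraries was left out. The KIT and EPO list kept 3 higher and 1 lower without the day 1 library of the all-days set and had 0 without any of the other 3, and its median was 0.05 without the day 3 library of the early-days set. The counts for the whole lists in the full fit at an unadjusted p under 0.05 were 4 higher and 3 lower for KIT and EPO, and 7 lower for ERK. DESeq2 called 4 higher and 2 lower, and 3 lower.

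The progenitor transcription factors SPI1 and IKZF2 fell and the erythroid factor GFI1B rose, while GATA1, KLF1 and MYB were not called. In the progenitor list 2 of 13 members tested were called lower, 3 with the block, and the median was -0.28. Both calls held without the day 1 library of the all-days set, 1 held without that of the early-days set and 0 without the day 3 library of either set, and the median ran from -0.95 to -0.18 over these 4 fits. SPI1, the PU.1 factor that opposes GATA1, measured 14 and 15.2 on day 1 and 4.03 and 3.11 on day 3 (log2 fold change -2.03 ± 0.35, adjusted p = 0.0223). IKZF2 measured 14.9 and 34.3 on day 1 and 2.05 and 2.46 on day 3 (log2 fold change -3.44 ± 0.46, adjusted p = 0.00967). GATA2 measured 188 and 409.7 on day 1 and 111 and 172 on day 3, with day 3 below day 1 within each set but the day 3 library of the early-days set close to the day 1 library of the all-days set. Its log2 fold change of -1.08 ± 0.41 was called with the block and not without (adjusted p = 0.271 without it and 0.00425 with it). MYB, which sustains progenitor division, measured 342 and 352 on day 1 and 334 and 273 on day 3 and was not called in either fit (log2 fold change -0.19 ± 0.21).

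In the erythroid list 1 of 13 was called higher, 5 higher and 1 lower with the block, and the median was 0.24. LMO2 was the member lower on day 3 in both sets, with 14836 and 24485 counts on day 1 and 12660 and 16425 counts on day 3. GFI1B, a repressor needed for erythroid maturation, measured 287 and 238 on day 1 and 376 and 414 on day 3 (log2 fold change 0.59 ± 0.11, adjusted p = 0.036). SOX6, a repressor of fetal globin, measured 3.99 and 3.82 on day 1 and 11.5 and 13.4 on day 3, about 3.19-fold higher by the fit and called with the block and not without (adjusted p = 0.0813 without it and 0.00134 with it). GATA1, the master regulator of the lineage, measured 199 and 216 on day 1 and 234 and 232 on day 3 (log2 fold change 0.17 ± 0.09) and KLF1, the activator of beta-globin, 389 and 418 on day 1 and 442 and 482 on day 3 (log2 fold change 0.20 ± 0.12), and neither was called in either fit. In TPM GATA1 stood at 295 and 298 TPM on day 1 and 339 and 312 TPM on day 3 and GATA2 at 121 and 243 TPM on day 1 and 68.7 and 97.8 TPM on day 3.

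Beta-globin and mu-globin mRNA rose, and 5 others were called with the block. Of the 10 globin genes 2 were called higher, 7 with the block, and the median log2 fold change was 1.06. Beside HBB the call was HBM, mu-globin, at 18.6 and 13.2 on day 1 and 34 and 41.4 on day 3 (log2 fold change 1.24 ± 0.20, adjusted p = 0.0155). Alpha-globin was called with the block and not without it. HBA1 measured 1745 and 2075 on day 1 and 2824 and 5384 on day 3 and HBA2 1848 and 1967 on day 1 and 3126 and 4593 on day 3, with log2 fold changes of 1.10 ± 0.42 and 1.02 ± 0.32 (adjusted p = 0.271 and 0.169 without the block, 0.00259 and 0.0024 with it), and reads of these near-identical genes, like those of HBG1 and HBG2, may be split between them. The rise was larger in the early-days set, 1.38 against 0.69 for HBA1. Fetal gamma-globin was low, with HBG2 at 51.1 and 64.3 on day 1 and 102 and 156 on day 3 and HBG1 at 26 and 34.4 on day 1 and 52.6 and 90.5 on day 3, and both were called with the block and not without (adjusted p = 0.000613 and 0.00138 with it, 0.253 and 0.345 without). Embryonic zeta-globin, HBZ, measured 4.46 and 4.05 on day 1 and 8.04 and 31.5 on day 3, where 1 of the day 3 libraries stood apart (adjusted p = 0.297, and 0.0281 with the block). HBD, delta-globin, measured 421 and 383 on day 1 and 466 and 623 on day 3 and was not called. AHSP, the chaperone of free alpha-globin, measured 275 and 315 on day 1 and 470.1 and 736 on day 3 (log2 fold change 1.03 ± 0.32, adjusted p = 0.167 without the block and 0.00074 with it). When 1 library was left out, 2 globins stayed called without the day 1 library of the all-days set and 0 without any of the other 3, against 7 at an unadjusted p under 0.05 and 3 by DESeq2 in the full fit and 4 by edgeR's exact test.

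In heme synthesis ABCB10 rose and ALAS1 fell, and 8 others were called higher with the block. Of 13 members 1 (ABCB10, above) was called higher and 1 lower, and 9 and 1 with the block, with a median of 0.51. The member that fell was ALAS1, the housekeeping form of the first enzyme of the pathway, at 71.9 and 161 on day 1 and 33.4 and 33.1 on day 3 (log2 fold change -1.81 ± 0.29, adjusted p = 0.0162). Its day 3 libraries were nearly equal, while on day 1 the early-days library was well above the other, and on day 0 both were low, at 34.3 and 35.3. ALAS2, the erythroid form, measured 366 and 210.0 on day 1 and 571 and 656 on day 3 and rose with the block and not without it (log2 fold change 1.09 ± 0.30, adjusted p = 0.116 without it and 0.0255 with it). In TPM ALAS1 stood at 67.4 and 140.0 TPM on day 1 and 30.3 and 28.3 TPM on day 3 and ALAS2 at 415 and 221 TPM on day 1 and 636 and 674 TPM on day 3, so the erythroid form was the higher in all 4 libraries. CPOX (0.58), FECH (0.50), which inserts the iron, and the mitochondrial iron importer SLC25A37 (0.81) were also called higher with the block. With the day 1 library of the early-days set left out ALAS1 alone stayed called, and with the day 3 library of either set left out no member was.

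Of the iron handling genes, 13 in number, none was called by the quasi-likelihood test without the block (2 higher and 1 lower at an unadjusted p under 0.05, and 1 higher by DESeq2), and 3 were higher and 1 lower with it, with a median of 0.16. ERFE, the hormone erythroferrone that EPO induces, measured 31.6 and 31.4 on day 1 and 58.2 and 76.9 on day 3 (log2 fold change 1.10 ± 0.29, adjusted p = 0.107 without the block and 0.000753 with it). FTH1, the ferritin heavy chain, measured 4297 and 4733 on day 1 and 3388 and 3736 on day 3 (log2 fold change -0.34 ± 0.10, adjusted p = 0.0235 with the block). TFRC, the transferrin receptor, was abundant on both days at 5767 and 3663 on day 1 and 6539 and 5689.7 on day 3 and was not called.

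Among red cell membrane genes SLC4A1 rose, and 9 others were called higher with the block. Of 22 members 1 was called without it, and 10 were higher and 1 lower with it, with a median of 0.47. Among all genes tested 0.522% were higher without the block, and 6.48% were higher and 7.72% lower with it. AQP1, the water channel, measured 34.7 and 26.9 on day 1 and 94.2 and 135 on day 3 (log2 fold change 1.89 ± 0.44, adjusted p = 0.0688 without the block and 0.00281 with it). EPB42, protein 4.2, measured 181 and 136 on day 1 and 223 and 302 on day 3 (log2 fold change 0.73 ± 0.23, adjusted p = 0.0321 with the block). The lower one was TMCC2, from 12.7 and 14.3 to 7.05 and 8.75 (adjusted p = 0.00535 with the block). Without the day 1 library of the all-days set 4 members were called higher, and without any of the other 3 libraries 0 were, against 7 at an unadjusted p under 0.05 and 4 by DESeq2 in the full fit and 3 by edgeR's exact test.

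Among adhesion and leukocyte surface genes 1 of 14 tested was called higher, and with the block 4 were higher and 5 lower, with a median of -0.29. ITGB1, the beta chain of the fibronectin receptors, measured 327 and 329.8 on day 1 and 517 and 521 on day 3 (log2 fold change 0.66 ± 0.09, adjusted p = 0.0103). Its partner ITGA4 measured 422 and 401 on day 1 and 547 and 527 on day 3 and CD36, a scavenger receptor of early erythroid cells, 624 and 642 on day 1 and 926 and 1129 on day 3, and both rose with the block and not without (adjusted p = 0.0086 and 0.00209, against 0.0755 and 0.11). CD37, a tetraspanin of leukocytes, measured 29.8 and 59.2 on day 1 and 17.1 and 22.1 on day 3 (adjusted p = 0.00388 with the block and 0.132 without).

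Cholesterol genes rose from day 1 to day 3 with the block and were not called without it. Of 20 none was called by the quasi-likelihood test, 12 were higher at an unadjusted p under 0.05, 8 by DESeq2, 3 by edgeR's exact test and 12 with the block, and the median log2 fold change was 0.58. LSS, lanosterol synthase, measured 54.4 and 45.4 on day 1 and 109.8 and 78.1 on day 3, and INSIG1, the sterol sensor partner, 56.6 and 91.6 on day 1 and 159 and 147 on day 3. MSMO1 measured 24.2 and 37.9 on day 1 and 63.3 and 55.4 on day 3 and IDI1 49.4 and 65.9 on day 1 and 84.1 and 91.7 on day 3 (adjusted p with the block = 0.00982, 0.0125, 0.0208 and 0.00547 for the 4 in this order). For each of these 4 genes day 1 was the lowest of days 0 to 6 in both sets. On day 0 the 4 stood at 121 and 125, 194 and 201, 91.3 and 79.3 and 128 and 146, and relative to day 0 the median of the list was -0.98 on day 1, -0.43 on day 3 and -0.77 on day 6 on the log2 scale. Between day 6 and day 0, which share no library with days 1 and 3, 12 of the 20 were called lower in the fit without the block. ACAT2, a cholesterol pathway enzyme outside the list, was called higher on day 3 (69.3 and 66.6 on day 1 and 120.1 and 111 on day 3, log2 fold change 0.76 ± 0.11, adjusted p = 0.0126) and lower on day 6 than on day 0 (adjusted p = 0.000511), and it was named after its values were seen.

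Targets of ATF4, the transcription factor of amino acid and heme stress, included 2 that rose. Of 15 members 2 were called, 4 with the block, with a median of 0.28. ASNS, asparagine synthetase, measured 105 and 81.6 on day 1 and 158 and 173 on day 3 (log2 fold change 0.82 ± 0.15, adjusted p = 0.0277), and PSAT1, of serine synthesis, 91.5 and 67.5 on day 1 and 143 and 156 on day 3 (log2 fold change 0.91 ± 0.17, adjusted p = 0.0329). Both sets rose, by more in the early-days set. CHAC1 measured 4.15 and 3.51 on day 1 and 6.86 and 11.7 on day 3 and was called with the block and not without (adjusted p = 0.00851).

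Of the replication and mitosis genes, CCNE1 and ANLN were those called higher without the block. Over all genes tested 0.522% were called higher without it and 6.48% with it. CCNE1, which drives entry into S phase, measured 56.5 and 47 on day 1 and 119.6 and 119 on day 3 (log2 fold change 1.21 ± 0.13, adjusted p = 0.00428). It was the 1 call among 24 replication genes, which had 3 higher with the block (MCM4 at 715 and 554 on day 1 and 805 and 782 on day 3, for example) and a median of 0.15. Of 18 mitosis genes 1 was called higher, ANLN at 88.1 and 86.3 on day 1 and 139 and 136 on day 3 (log2 fold change 0.66 ± 0.13, adjusted p = 0.0478), and 4 with the block, with a median of 0.23. CCNE1 stayed called whichever of the 4 libraries was left out. GFI1B, ITGB1, ASNS, PSAT1 and ANLN were the calls of their lists, and those lists had 0 calls among higher genes without the day 3 library of the all-days set or without either library of the early-days set. PRC1 measured 131 and 153 on day 1 and 196 and 235 on day 3, and MKI67, the proliferation marker, 661 and 466 on day 1 and 880.0 and 754 on day 3 (adjusted p = 0.00503 and 0.0393 with the block).

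For most called genes day 2 lay between days 1 and 3, and the change from day 0 to day 6 had the same direction. Of the 83 genes called higher all had a day 2 mean between those of days 1 and 3, and of the 157 called lower 152 did, against 49.8% of all genes tested. Called genes were picked for a wide gap between days 1 and 3, and the day 2 libraries were in the fit. The share over all genes is therefore no like baseline, and nothing is drawn from the difference. Relative to day 1 the median log2 level of the higher genes was -0.06 on day 0, 0.43 on day 2, 0.93 on day 3, 1.09 on day 4 and 1.19 on day 6. For the lower genes it was -0.14, -0.64, -1.37, -1.56 and -1.93. Day 6 was also compared with day 0 in the same fit, where 7.88% of all genes were called higher and 9.28% lower. Of the 83 genes 77 were called higher there and of the 157 genes 139 lower. Both comparisons use the same estimates of spread, so a gene of small spread is more easily called in both. SLC4A1 had a log2 fold change of 5.49 from day 0 to day 6, TRIM10 of 4.43, VIM of -5.83 and PER1 of -3.06. Of the 240 genes 6 had the opposite sign from day 0 to day 6, ACAT2, MMAB, NFATC1, PLEKHH3, RDH10 and ZNF175, all named here after their values were seen, and ACAT2 alone was called.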

How the data were processed

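Stranded poly(A) libraries were made from HUDEP-2 cells on 10 days. Per the submitters' processing notes the tools were Trimmomatic 0.38, HISAT2 2.1.0 and StringTie 2.1.3b on hg38. The authors deposited read counts per RefSeq transcript without normalization, and TPM, which they scaled for transcript length and library size. Their FPKM were not used here, and of the per-sample columns 23 were not used, among them a further set of day 0 columns. How reads shared by transcripts were divided is not given in the sources used here. Counts and TPM of 170322 transcripts were summed by gene symbol to 46425 genes.

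The 14 libraries of days 0 to 6 entered 1 fit with a coefficient for each day (edgeR 4.0.16, R 4.3.3: filterByExpr, TMM, glmQLFit, glmQLFTest), which was tested on simulated data. Where the simulated sets differed, as the sets do here, the fit without the block was not required to recover the changed genes. The study names edgeR and TMM. Adjusted p is Benjamini-Hochberg's over the whole table, with a threshold of 0.05. The SE was taken as log2 fold change, without its sign, over the root of F. Within a set fold changes came from log2 CPM (prior count 2), levels by day log2(CPM + 0.5), and fold bounds a floor of 3 counts per library; intervals of this kind cover counting error only. Columns name a day but no replicate. Libraries of a table deviated together from the means of the days (correlations 0.375 to 0.579 over 21 pairs of days, 0.526 for days 1 and 3), so the table was used as a block beside the fit without it. Between the 2 libraries of a day 71.3% (day 1) and 69.1% (day 3) of genes differed by more than sampling noise.

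The comparison, the gene lists and the alternatives were chosen with earlier results of these data known. The genes named were the 15 largest increases and 15 largest decreases among called genes whose counts averaged 100 or more and whose days did not overlap, the 8 largest rises and 8 largest falls of CPM, and members of 23 gene lists and 6 marker lists with the smallest adjusted p or a defining role. Symbols of uncharacterized loci and small or long non-coding RNA classes were counted and not named, and some genes of the rule are not reported here. Promoters were the 250 bases before the start in RefSeq's table for GRCh38.p14, matched by symbol for 11074 of the 15890 genes tested. The GC, CCAAT and TATA boxes were added after the sequences were seen. Alternatives were the block, other sets of libraries, other normalizations and filters, each library left out, edgeR's exact test, DESeq2 1.42.0, and limma 3.58.1 on log2(TPM + 1) and log2(TPM + 0.1). DESeq2 with the table as a term and the 12 libraries of days 1 to 6 were added after seeing the data.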

Additional observations from a re-analysis of the deposited data

How the results depend on the processing

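With the table as a block the fit of 14 libraries called 1030 genes higher and 1226 lower, and that of 4 libraries 874 and 1060. Without the block the 4 libraries alone gave 0 and 0 by the quasi-likelihood test (1460 at an unadjusted p under 0.05), and all 20 libraries 42 and 48. DESeq2 called 397 higher and 541 lower, with the table as a term 1405 and 1440, the exact test 327 lower, and limma on log2(TPM + 1) 284 lower. Leaving out 1 library gave 7 to 117 higher and 9 to 191 lower. The other normalizations and filters, and days 1 to 6 alone, kept both counts within 1.5 times of 83 and 157, and no scaling moved the median of all genes by more than 0.1. Of the 240 genes, 86 stayed called in the same direction with 20 libraries, 240 with DESeq2 and 230 with upper-quartile normalization. The cause of these differences was not tested, beyond that fewer libraries leave fewer degrees of freedom. The count of 216 genes that moved the same way from day 0 to day 6 stayed within 1.5 times under each alternative run for it.

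No named gene that was called changed direction under any alternative. Of the named genes that were not called, 3 changed sign as single libraries were left out: SGK1 ranged from -0.53 to 0.28, DUSP1 from -0.33 to 0.84 and BNIP3L from -0.072 to 0.57 on the log2 scale. No paired analysis was possible because the deposited columns carry no replicate number, where pairs are meant by the replicate numbers of the labels. Pairing by deposited table was possible and is the block above, with 874 higher and 1060 lower in the 4 libraries. The precision is set by 2 libraries a day that differ by table, and 54157215 to 68356040 counts a library put the floor of 3 counts at 0.0439 to 0.0554 CPM.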

Other observations

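Of the metallothioneins and zinc genes 5 were called lower on day 3 than on day 1 with the block. In the fit without the block 5 members of the list were called higher on day 6 than on day 0. None of the 10 members was called without the block by the quasi-likelihood test (1 higher and 4 lower at an unadjusted p under 0.05, 1 higher by DESeq2, 3 lower by edgeR's exact test and 2 lower by limma on log2(TPM + 1)), and with it 1 was higher and 5 lower, with a median of -1.13. The median turned to 0.34 without the day 1 library of the all-days set, and was -0.40 without the day 3 library of the early-days set and -2.21 without that of the all-days set. Metallothioneins bind zinc. MT2A measured 48.6 and 30.3 on day 1 and 16.6 and 13.9 on day 3 in CPM, after 0.756 and 0.185 on day 0 and 13 and 8.12 on day 2 and before 14.3 and 10.8 on day 6 (adjusted p = 0.00263 for day 3 versus day 1 with the block and 0.236 without). SLC30A1, the zinc exporter, was the member that rose, from 46 and 34.9 to 76.4 and 62.6 (adjusted p = 0.00879 with the block), and stood at 106 and 89.2 on day 6. MT1M was without counts on day 3. With a floor of 3 counts per library that was at least 23.1-fold under its mean day 1 level. By the lower day 1 library it was at least 14.5-fold.

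ID2, an inhibitor of helix-loop-helix factors, measured 268 and 456 on day 1 and 124 and 202 on day 3 (log2 fold change -1.15 ± 0.31, adjusted p = 0.112 without the block and 0.000524 with it). In the BMP, SMAD and ID list none of 11 was called by the quasi-likelihood test (1 higher and 1 lower at an unadjusted p under 0.05, 1 lower by DESeq2), with 2 higher and 3 lower with the block and a median of -0.02 that ran from -0.35 to 0.28 as single libraries were left out. Among the 8 TRIM genes the study follows, TRIM10 was called higher, and with the block 2 were higher and 2 lower. TRIM58, a ubiquitin ligase of late erythroid cells, measured 110.4 and 94 on day 1 and 149 and 163 on day 3 (adjusted p = 0.00458 with the block and 0.0608 without), and TRIM29 136 and 119 on day 1 and 59.6 and 37.9 on day 3 (adjusted p = 0.0089 and 0.271).

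Cell cycle exit and G1 cyclin genes had 0 calls among 12 by the quasi-likelihood test (1 lower at an unadjusted p under 0.05, 0 by DESeq2), and 1 higher (CDKN2C, 53.1 and 70.8 on day 1 and 73.7 and 105 on day 3) and 3 lower with the block, among them CCND1 (64.8 and 85 on day 1 and 52.4 and 57.7 on day 3) and CDKN1A (2.36 and 9.98 on day 1 and 1.46 and 2.48 on day 3). Ribosome biogenesis had 0 calls among 20 (0 at an unadjusted p under 0.05, 0 by DESeq2) and 1 higher with the block, UBTF, with a median of -0.08. The interferon list had 0 among 11 (0 at an unadjusted p under 0.05, 0 by DESeq2) and 1 higher with the block, IRF9, with a median of -0.40, which turned to 0.40 without the day 1 library of the early-days set and 0.01 without the day 3 library of the all-days set. BCL2 family genes had 0 among 11 (1 higher and 2 lower at an unadjusted p under 0.05, 1 lower by DESeq2), and with the block 1 higher and 2 lower, MCL1 (183 and 242 on day 1 and 155 and 166 on day 3) and BIK (5.19 and 4.37 on day 1 and 2.72 and 2.16 on day 3). Organelle clearance genes had 0 among 13 (2 higher and 1 lower at an unadjusted p under 0.05, 1 lower by DESeq2), and with the block 1 higher and 2 lower, with SQSTM1 at 276 and 411 on day 1 and 213 and 227 on day 3. BNIP3L, the mitophagy receptor of red cell precursors, measured 409 and 508 on day 1 and 434 and 678 on day 3 and was not called in either fit. The counts with the block in this paragraph stand beside 6.48% higher and 7.72% lower over all genes tested.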
